A study of Homo sapiens with 18 samples.

Results

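Interferon-stimulated genes are the antiviral and signalling genes that cells switch on after interferon binds its receptors. The 39 genes described here were taken by symbol, namely OAS1 to OAS3, OASL, 4 IFIT genes, MX1, MX2, 3 IFITM genes and 26 others, out of 42141 genes in the deposited tables. They were followed in acini of MCF-10A.B2, a human mammary epithelial line that carries, in every group, a chimeric HER2 receptor whose kinase is switched on by a drug that pairs 2 receptor molecules. Wild-type cells (WT) and JNK knockout cells (JNKKO) grew on growth-factor-reduced Matrigel for 21 days, the first 7 with EGF. For the last 14 days EGF was exchanged for ethanol (control), for the B/B homodimerizer (dimerizer), or for dimerizer together with TGF-β1. The 2 genotypes and 3 treatments gave 6 groups of 3 libraries each, and there was no group with TGF-β1 alone. Which JNK genes were edited, how many clones were used and what drives the chimeric receptor could not be learned from the labels. The labels name no added interferon in any group. Nor do they state whether a group's 3 libraries are independent cultures, and p-values therefore cover only the library-to-library spread, which may be technical.

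Type I interferons (the IFNA genes, IFNB1, IFNE and others) bind the receptor made of IFNAR1 and IFNAR2. Its kinases JAK1 and TYK2 phosphorylate STAT proteins, among them STAT2, which joins IRF9 in a complex that binds a DNA element called the interferon-stimulated response element (ISRE). Signals of interferon-gamma act mainly through another element, the gamma-activated site (GAS). The products of the target genes sense viral RNA, degrade it, block its translation or stop viruses at membranes, and several of them feed back on the pathway. In epithelial cells many of these genes also have a steady level without infection.

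Promoter sequences of 6 members are shown to describe the DNA element upstream of genes that were called in these data. The genes are those with an ISRE match that were most often among the members named with a test. That naming took calls in both directions, so a mix of directions among the 6 was favoured by the choice and is no result about the element. IFI44L, with 2 matches, was named as often as BST2 and is not shown, since 6 are printed. The 250 bases before the start of each gene (RefSeq, GRCh38.p14) were searched on both strands for the ISRE core, GAAA followed by any 2 bases and GAAA, and for the GAS core, TTCNNNGAA. Each sequence is a stretch of the gene's own strand, and capitals mark the ISRE core or its reverse complement.
OAS3 (chr12:112938296-112938351, plus strand, outside annotated exons): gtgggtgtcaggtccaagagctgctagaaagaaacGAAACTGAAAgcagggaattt
IFITM3 (chr11:320884-320913, minus strand, inside an annotated exon): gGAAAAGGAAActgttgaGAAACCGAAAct
PARP14 (chr3:122680800-122680829, plus strand, inside an annotated exon): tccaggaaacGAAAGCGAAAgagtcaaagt
IFI44 (chr1:78649736-78649788, plus strand, outside annotated exons): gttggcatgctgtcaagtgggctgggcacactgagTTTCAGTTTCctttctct
ISG20 (chr15:88638937-88638966, plus strand, inside an annotated exon): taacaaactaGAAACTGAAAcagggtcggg
BST2 (chr19:17405738-17405767, minus strand, inside an annotated exon): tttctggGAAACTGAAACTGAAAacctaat
OAS3 holds 2 matches in its window, of which 1 is shown. BST2 holds 2 overlapping matches and IFITM3 holds 2 separate ones, while the match of IFI44 reads on the opposite strand. Of the 31 members with a promoter in the sequence table, 19 (61.3%) held the ISRE core, against 839 of all 27305 promoters searched (3.07%). The GAS core was in 10 of the 31 (32.3%), OAS1, IRF1 and IRF9 among them, against 1850 of all promoters (6.78%). With TGF-β1 added to dimerizer, OAS3, IFITM3 and PARP14 fell in both genotypes, IFI44 and ISG20 rose in both, and BST2 did not pass the test in either. The presence of these letters is a description of the window and was not tested for binding of a factor.

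Library totals ran from 24243537 to 34499651 expected counts, so 1 count per 1000000 (CPM) was at least 24.2 counts. MAPK9, the JNK2 gene, was at 57.1 to 68.4 CPM over the 9 WT libraries and at 42.1 to 53.9 over the 9 JNKKO libraries, while MAPK8 (JNK1) overlapped, at 22.8 to 35.1 and 25.5 to 34.9 CPM. Since the edited genes and sites are not given, these levels do not check the genotype labels. Mitochondrially encoded transcripts made up 15.2% of all counts under WT control, 5.38% in JNKKO dimerizer with TGF-β1 and 8.90% to 10.8% in the other groups, as group means. Replicate 3 of the TGF-β1-treated WT group is tagged as knockout in its genotype field, against its title, by which it was placed. The 9 basal mammary epithelial markers summed to between 10273 and 14232 CPM over the 18 libraries. Single markers varied more, KRT5 from 3124 to 8738 CPM, KRT17 from 1159 to 4532 and LAMB3 from 302 to 5646. ITGA6 ran from 335 to 828 CPM, CDH3 from 225 to 515, KRT14 from 136 to 357 and TP63 from 55.3 to 124. CDH1 ran from 39.2 to 107 CPM and EPCAM from 2.19 to 15.7. With TGF-β1 4 rose and 5 fell in WT (all genes: 33.4% and 31.8%). In JNKKO 3 rose and 6 fell (all genes: 30.5% and 30.3%). Of 15 immune and endothelial markers, the sum ran from 22.9 to 24.6 CPM in WT control and from 103.6 to 112.4 CPM in JNKKO dimerizer with TGF-β1, mostly from CSF1R and CD68. It was at 29.7 to 33.2 CPM in WT dimerizer and JNKKO control, at 60.8 to 73.4 in WT dimerizer with TGF-β1 and at 75.3 to 90.4 in JNKKO dimerizer. Of the other 13, PECAM1 reached 12.2 CPM in a library, CD14 7.68, ITGAM 3.71, MS4A1 1.62 and PTPRC 1.07. VWF and CD4 reached 0.336 and 0.210 CPM, and CD3E, CD8A, NKG7, LYZ, CDH5 and CLEC4C (0 counts) stayed at or below 0.0704 CPM. The 7 fibroblast markers summed to 18.1 to 34.5 CPM without TGF-β1 and to 70.5 to 122.0 CPM with it, mostly from DCN. DPT was at 6.69 to 7.88 CPM in JNKKO dimerizer with TGF-β1 and at or below 0.257 CPM in the other groups, PDGFRB reached 1.15 CPM, and PDGFRA, LUM, COL3A1 and THY1 stayed at or below 0.396 CPM. The part of any of these in the results on interferon-stimulated genes was not tested. In whole acini, fewer cells that express a gene and less RNA per cell cannot be told apart.

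The members differed widely in level. Values of single libraries are given in the order of replicates 1 to 3, and groups of a genotype in the order control, dimerizer, dimerizer with TGF-β1. The error after a log2 difference is the model's standard error (SE). On the per-length scale (transcripts per 1000000, TPM), IFITM3 was the highest with a mean of 291 TPM over the 18 libraries, followed by IFITM2 with 224 TPM and BST2 with 147 TPM. TRIM22 at 29.6 TPM, STAT2 at 24.6, OAS1 at 14.8, ISG20 at 13.2 and OAS3 at 11.7 came next. IRF1 at 10.7 TPM, IRF9 at 10.6 and IFI6 at 10.1 were close neighbours whose ranges over libraries overlapped. At the other end RSAD2 had 0.152 TPM and CMPK2 0.114 TPM, and MX2 (9 counts in all 18 libraries) and EPSTI1 (24 counts) did not pass the filter on low counts. The other 37 members were tested. Summed over the members, the level was 680 ± 15.2 TPM in WT control (SD, n = 3), 1004 ± 17.3 under dimerizer and 776 ± 12 after TGF-β1 was added. JNKKO sums were 1013 ± 16.95, 917 ± 12.9 and 836 ± 39.4 TPM in the same order of treatments. WT control had the lowest TPM sum of the 6 groups. As a share of counts, JNKKO dimerizer with TGF-β1 was lowest, at 0.0622%, next to 0.0642% in WT control. The TPM sums rested largely on IFITM2 and IFITM3, so they do not describe the members as a set. IFITM2 averaged 142 TPM for WT control libraries, 309 once WT acini received dimerizer, against 317 for JNKKO control libraries. IFITM3 means, listed likewise, were 206, 340 and 358 TPM, while BST2 went the other way, at 162, 133 and 138. The median of all genes also rose by 0.09 on log2(TPM + 1) with dimerizer in WT. Of the 37 members tested, 11 had their highest mean CPM in JNKKO dimerizer with TGF-β1, the scarce RSAD2 and CMPK2 among them, and 13 had their lowest there. WT dimerizer held the highest mean of 8 members and JNKKO dimerizer the lowest of 10. The same counts over all genes were not made, so these cannot be read as a trait of the members.

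**Figure D1:**
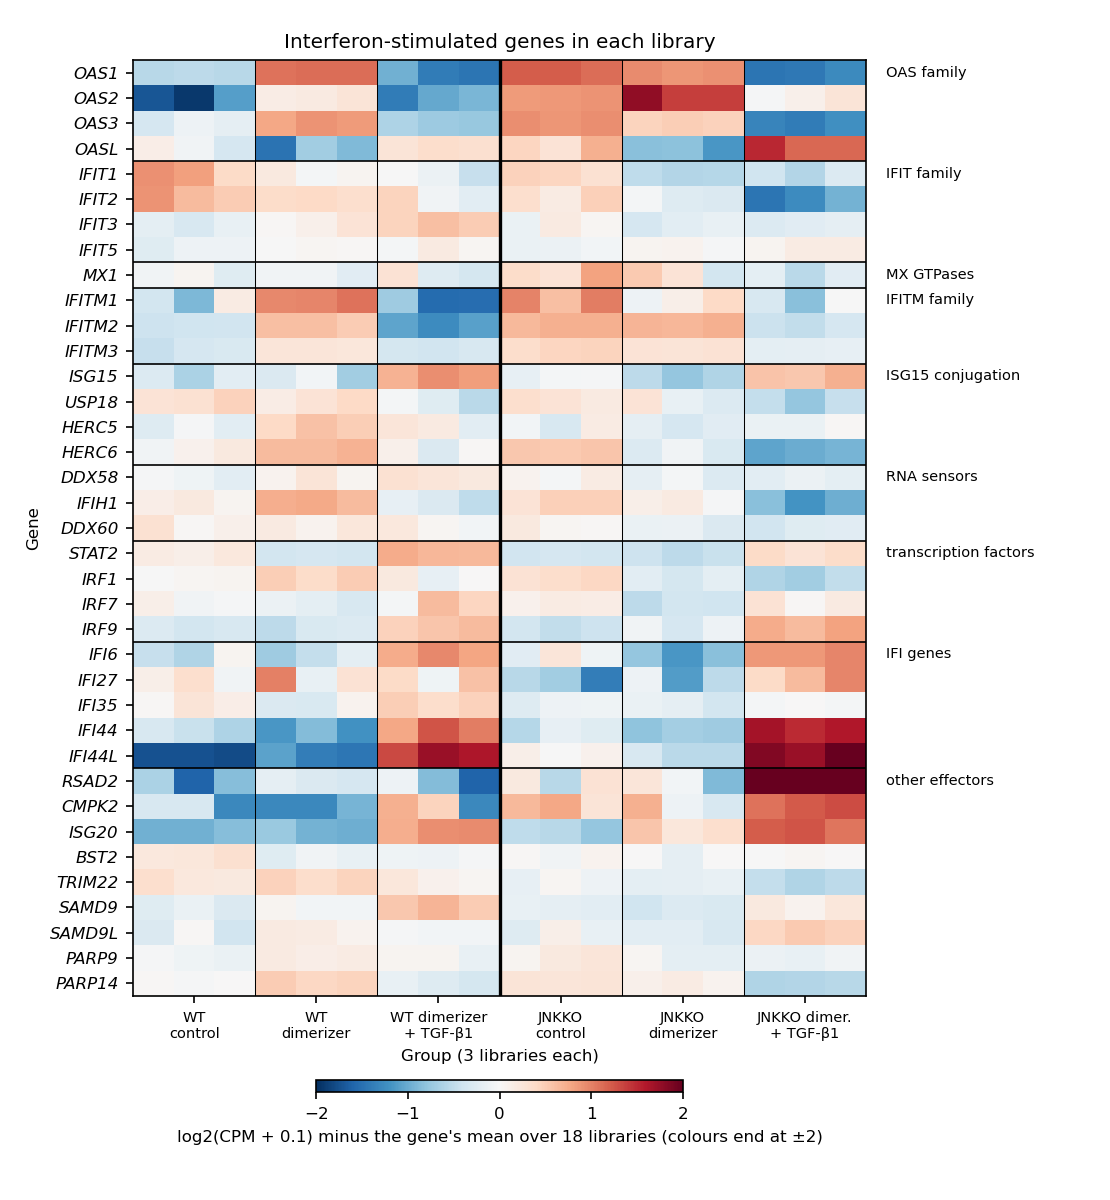
Level of the 37 members tested in each of the 18 libraries, as log2(CPM + 0.1) minus the gene's own mean (colour), in rows by role and columns by group. The OAS1, OAS3 and IFITM rows are pale or blue in WT control and red in WT dimerizer and JNKKO control, while IFI44, IFI44L, ISG20 and IFI6 are red in both groups with TGF-β1.

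The first question was what HER2 activation by the dimerizer did to these genes in each genotype. In WT acini the dimerizer raised the 2'-5'-oligoadenylate synthetases OAS1 (3.17-fold) and OAS3 (2.07-fold), which make the messenger that activates RNase L, and the membrane proteins IFITM2 (1.96-fold) and IFITM3. It lowered STAT2, BST2, IFIT1 and IFI44. Of the 37 members 19 rose and 7 fell (adjusted p under 0.05 by the quasi-likelihood test of edgeR, with Benjamini-Hochberg adjustment over all genes tested), where 30.3% of all 16911 genes tested rose and 25.6% fell (55.9% in either direction). The members' median log2 difference was 0.20, against 0.03 for all genes tested. The mitochondrial share also differed between these groups, at 15.2% and 8.99998%. Without mitochondrially encoded genes the counts were again 19 and 7 (all 16893 genes: 4900 and 4513). Limma on log2(TPM + 1) gave 18 and 5, where 37% of all genes rose and 16.6% fell on that scale.

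In JNKKO acini the dimerizer raised fewer members. ISG20, an exonuclease, rose 2.000-fold, OAS2 rose and IRF9 rose slightly, and these were the only 3 that rose, while 18 fell (all genes tested: 22.5% rose, 17.9% fell, 40.4% either). Among those that fell were OAS3, IRF1, HERC6, OASL and IFIT1. The median log2 difference of the members was -0.27, against 0.00638 for all genes. For 23 of the 37 members the dimerizer effect itself differed between genotypes in the interaction test, higher in JNKKO for 3 and lower for 20 (all genes: 21.3% and 21.2%, 42.6% either way). The members' median interaction was -0.52, against 0.00521 for all genes. On log2(TPM + 1) the members had 2 and 21, and all genes leaned the same way, with 12.3% higher and 28.9% lower. OAS1 had the most negative interaction of those named here, at -1.93 ± 0.10 (edgeR adjusted p = 7.08e-15), followed by OAS3 at -1.51 ± 0.07 (edgeR adjusted p = 7.18e-16) and IFITM2 at -0.98 ± 0.06 (edgeR adjusted p = 4.98e-13). ISG20 at 0.96 ± 0.19 (edgeR adjusted p = 9.86e-05), STAT2 at 0.42 ± 0.06 (edgeR adjusted p = 4.74e-06) and BST2 at 0.34 ± 0.07 (edgeR adjusted p = 0.000325) were the 3 positive ones. The BST2 interaction missed the threshold on TPM, at 0.18 on the log2(TPM + 1) scale.

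**Figure D2:**
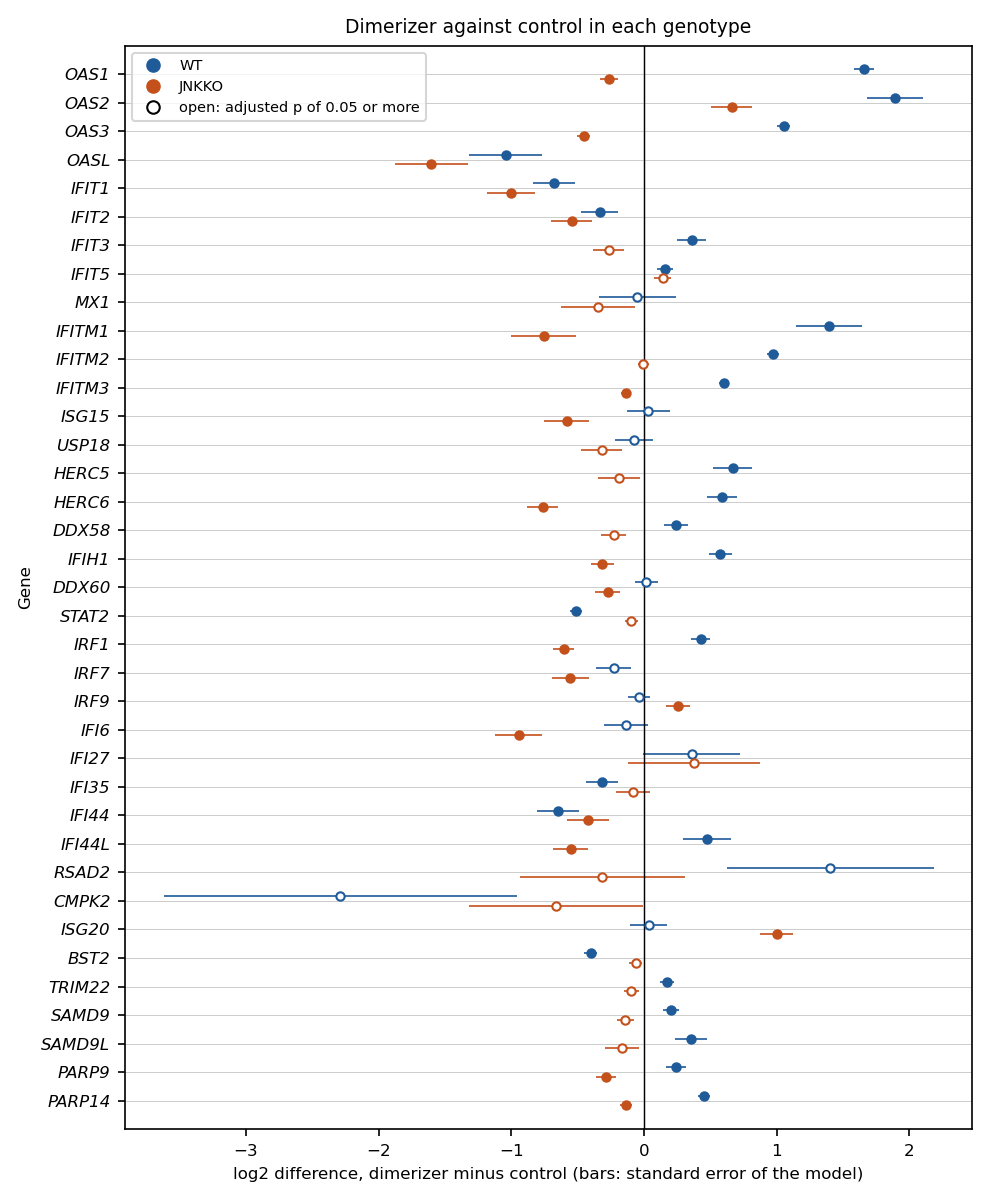
Log2 difference between dimerizer and control for the 37 members in WT (blue) and JNKKO (orange), with the model's standard error as bars and open circles for adjusted p of 0.05 or more. OAS1, OAS3, IFITM1, IFITM3, HERC6, IFIH1, IRF1, IFI44L, PARP9 and PARP14 lie right of 0 in WT and left of 0 in JNKKO. The widest bars belong to CMPK2 and RSAD2, which have few counts.

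The second question was how knockout cells differed from WT cells under the same treatment. In control medium JNKKO acini had more OAS2 (6.000-fold), OAS1 (3.32-fold), OAS3, IFITM2 (2.14-fold) and IFITM3, and less STAT2, TRIM22 and BST2. In all 16 of the 37 were higher and 6 lower (all genes: 25.8% and 23.5%, 49.3% either way), with a median of 0.25 against 0.00687. This comparison and that of dimerizer with control in WT share the WT control libraries. With dimerizer 5 members were higher in JNKKO and 19 lower (all genes: 21.6% and 18.5%, 40.1% either way), with a median of -0.29 against 0.00406. Here log2(TPM + 1) gave 3 and 23 members, with 10.5% of all genes higher and 32.1% lower. The 5 higher became 3 without JNKKO dimerizer replicate 1, where 3351 of all 17251 genes were higher. With dimerizer and TGF-β1 the counts were 11 higher and 13 lower (all genes: 26.5% and 26.4%, 52.9% either way), with a median of -0.17 against -0.00402. RSAD2, a gene of few counts treated further below, is among the 11 higher. Without the WT library whose genotype label contradicts its title the counts were 10 and 14 (all 17213 genes: 4511 and 3923).

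The third question was what TGF-β1 added to dimerizer-treated acini. It divided the set. STAT2, IRF9, IFI44, IFI44L, IFI6, ISG15 and ISG20 rose in both genotypes, and OAS1, OAS2, OAS3, IFITM2, IFITM3, IFIH1 and PARP14 fell in both. In WT 13 members rose and 14 fell (all genes: 33.4% and 31.8%, 65.2% either way), with a median of -0.14 against 0.0018. In JNKKO 14 rose and 12 fell (all genes: 30.5% and 30.3%, 60.7% either way), with a median of 0.07 against -0.00729. The members' shares called were thus near those of all genes. On log2(TPM + 1) limma gave 16 and 11 in WT (all genes: 42.3% and 21.7%) and 19 and 9 in JNKKO (all genes: 47.6% and 15.6%). There the median of all genes moved by 0.11 in WT and 0.16 in JNKKO. Without the library with the contradicting label the WT counts were 13 and 12 (all 17213 genes: 5357 and 5125).

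The effect of TGF-β1 differed between genotypes for fewer members, 7 with a higher and 5 with a lower effect in JNKKO (all genes: 14.1% and 18.8%, 32.9% either way). The counts were 9 and 4 with RLE size factors (all 16911 genes: 2586 and 2936). They were 7 and 1 on log2(TPM + 1), where 19.7% of all genes were higher and 11.6% lower. Without JNKKO dimerizer replicate 2 or JNKKO dimerizer with TGF-β1 replicate 3 only 4 were higher (all genes: 2396 of 17218 and 2188 of 17250). Without replicate 1 of WT dimerizer with TGF-β1, or replicate 1 or 2 of its JNKKO counterpart, 3 were lower. Of all genes, 2843 of 17205, 2918 of 17243 and 2823 of 17237 were lower there. IFITM1 at 1.83 ± 0.39, SAMD9L at 0.92 ± 0.17 and IFITM2 at 0.60 ± 0.07 were on the higher side (edgeR adjusted p = 0.000585, 9.67e-05 and 4.61e-08). ISG20 at -0.97 ± 0.16, STAT2 at -0.23 ± 0.06 and IFIT2 at -0.76 ± 0.24 were on the lower (edgeR adjusted p = 1.78e-05, 0.00433 and 0.0139). On TPM the calls of STAT2 (-0.13) and IFIT2 (-0.31) were lost. The IFIT2 call was also lost without replicate 1 of WT dimerizer with TGF-β1 (-0.51) or replicate 1 of JNKKO dimerizer with TGF-β1 (-0.65).

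**Figure D3:**
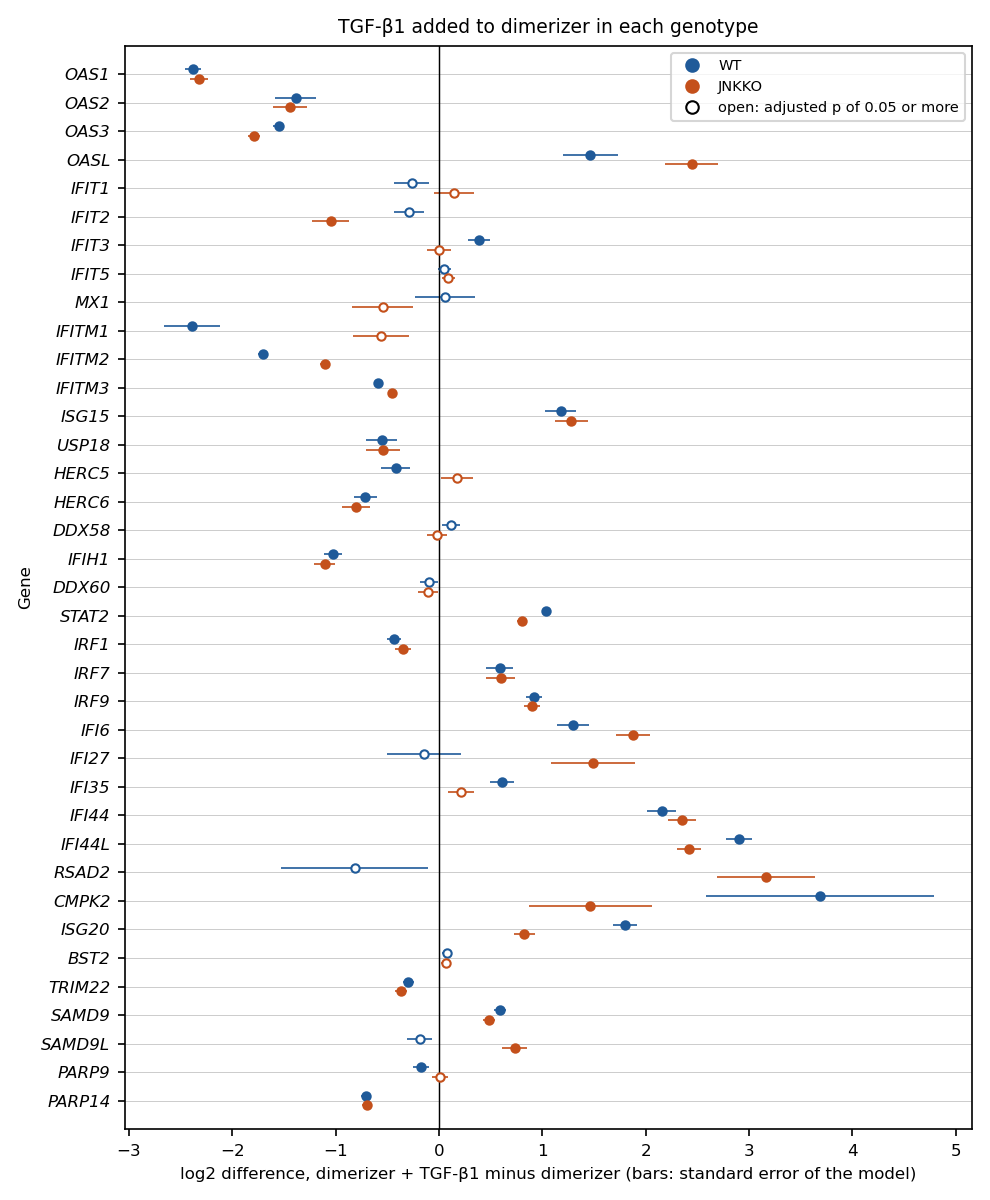
Log2 difference between dimerizer with TGF-β1 and dimerizer alone for the 37 members in WT (blue) and JNKKO (orange), with the model's standard error as bars and open circles for adjusted p of 0.05 or more. OAS1, OAS2, OAS3 and IFITM2 lie left of -1 in both genotypes, and IFI44, IFI44L, IFI6 and ISG15 lie right of 1 in both.

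Among the ligands, interferon transcripts were scarce. Of 22 interferon genes listed, 10 had no count in any of the 18 libraries, which allows a level of up to 0.00553 CPM over all libraries, for counting error only. IFNB1 and IFNG had 1 count each. IFNE, an interferon of epithelia, was the highest, at 0.921, 0.807 and 0.504 CPM (WT control), 1.26, 1.23 and 1.46 CPM (WT dimerizer) and 1.33, 1.09 and 1.42 CPM (WT dimerizer plus TGF-β1). JNKKO acini gave 2.01, 2.15 and 2.18 CPM (control), 1.54, 1.79 and 2.38 CPM (dimerizer) and 2.07, 2.72 and 2.12 CPM (dimerizer plus TGF-β1). All 9 JNKKO libraries lay above all 9 WT libraries for IFNE. The difference of JNKKO from WT was 1.497 ± 0.23 in control (edgeR adjusted p = 2.96e-06), 0.54 ± 0.21 with dimerizer (edgeR adjusted p = 0.0403) and 0.84 ± 0.21 with TGF-β1 (edgeR adjusted p = 0.00109). The difference with dimerizer was lost in 8 of 15 alternatives, DESeq2 among them (adjusted p = 0.0739) and without JNKKO dimerizer replicate 3 (0.34). IFNA1 had 7, 8 and 5 counts in the WT groups and 20, 13 and 45 in the JNKKO groups. Its near-identical neighbour IFNA13 makes the division of those reads uncertain. IFNE rose with dimerizer in WT by 0.82 (edgeR adjusted p = 0.00422).

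The receptor chain IFNAR1 was at means of 60.6 and 60.2 CPM in WT control and dimerizer and 60.2 and 63.3 in JNKKO, with no call between these groups. With TGF-β1 it was at 74.1 CPM in WT, a rise of 0.30 ± 0.05, and at 68.1 in JNKKO, where 0.11 ± 0.05 did not pass (edgeR adjusted p = 1.67e-06 and 0.0541). IFNAR2, its partner, was lower, at 8.86, 8.49 and 9.77 CPM (WT control), 11.9, 15.1 and 13.8 CPM (WT dimerizer) and 11.3, 12.3 and 12.5 CPM (JNKKO control). Both of the last groups lay above WT control, by 0.59 ± 0.10 and 0.41 ± 0.10 (edgeR adjusted p = 8.68e-06 and 0.00128). Of the 10 receptors and kinases listed, 8 rose and 2 fell with TGF-β1 in WT and 5 rose and 3 fell in JNKKO, where all genes had 33.4% and 31.8%, and 30.5% and 30.3%. With dimerizer 3 rose and 4 fell in WT and 1 rose and 4 fell in JNKKO, where all genes had 30.3% and 25.6%, and 22.5% and 17.9%. These shares of all genes apply to each list below. JAK2, a kinase of the interferon-gamma receptor, was at 26.6 CPM in WT control and 12.96 in JNKKO control, lower by 2.05-fold. IFNGR2, a chain of that receptor, was higher there by 1.74-fold, and rose with dimerizer in WT from 60.4 to 105 CPM. In JNKKO against WT, 2 were higher and 4 lower in control, 1 was higher and 6 lower with dimerizer and 1 was higher and 6 lower with TGF-β1. All genes had 25.8% and 23.5%, 21.6% and 18.5%, and 26.5% and 26.4% in the same order.

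The transcription factors among the members followed different courses. STAT2 and IRF9 are parts of the ISRE-binding complex. STAT2 was at 57.3, 55.5 and 59.4 CPM (WT control), 39.97, 40.5 and 39.9 CPM (WT dimerizer) and 85.7, 81.3 and 80.3 CPM (WT dimerizer plus TGF-β1). The knockout libraries held 39.2, 40.6 and 39.6 CPM (control), 38.4, 35.8 and 37.7 CPM (dimerizer) and 67.2, 61.8 and 66.2 CPM (dimerizer plus TGF-β1). WT control thus lay above the other groups without TGF-β1 and below both groups with it, with no overlap. STAT2 was 1.43-fold lower with dimerizer in WT (-0.51 ± 0.04, edgeR adjusted p = 6.32e-11), and in JNKKO -0.09 ± 0.05 did not pass (edgeR adjusted p = 0.110). It rose with TGF-β1 by 1.04 ± 0.04 in WT and 0.80 ± 0.05 in JNKKO (edgeR adjusted p = 1.95e-18 and 2.43e-15). IRF9 was at 9.71, 9.10 and 9.37 CPM (WT control), 8.17, 9.54 and 9.69 CPM (WT dimerizer) and 16.2, 17.4 and 18.4 CPM (WT dimerizer plus TGF-β1). Corresponding JNKKO levels were 9.16, 8.37 and 8.85 CPM (control), 11.2, 9.36 and 11.01 CPM (dimerizer) and 19.8, 18.4 and 20.6 CPM (dimerizer plus TGF-β1), so the groups with TGF-β1 stood clear of all others. TGF-β1 raised IRF9 by 0.92 ± 0.08 in WT and 0.90 ± 0.08 in JNKKO (edgeR adjusted p = 3.65e-11 and 7.79e-11). The smaller rise with dimerizer in JNKKO (0.26 ± 0.09, edgeR adjusted p = 0.0219) was lost on TPM (0.19) and without JNKKO control replicate 2 or JNKKO dimerizer replicate 1 or 3.

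IRF1 and IRF7 are interferon-induced factors that bind related sites. IRF1 was at 17.8, 18.3 and 18.6 CPM (WT control), 25.2, 23.1 and 25.3 CPM (WT dimerizer) and 20.5, 15.9 and 17.9 CPM (WT dimerizer plus TGF-β1). For JNKKO the readings were 21.9, 22.7 and 23.8 CPM (control), 15.5, 14.1 and 15.5 CPM (dimerizer) and 11.7, 10.97 and 12.7 CPM (dimerizer plus TGF-β1). Dimerizer raised it in WT and lowered it in JNKKO, without overlap of the groups in either genotype. The difference in JNKKO was -0.61 ± 0.08 (edgeR adjusted p = 1.88e-07), and that of JNKKO from WT was -0.71 ± 0.07 with dimerizer (edgeR adjusted p = 7.9e-09) and -0.62 ± 0.08 with TGF-β1 (edgeR adjusted p = 1.22e-07). IRF7 was lower, at 5.03 ± 0.358 CPM (WT control), 4.30 ± 0.314 CPM (WT dimerizer) and 6.46 ± 1.499 CPM (WT dimerizer plus TGF-β1; mean ± SD, n = 3). Its JNKKO means were 5.46 ± 0.157, 3.70 ± 0.211 and 5.61 ± 0.499 CPM, higher with TGF-β1 than with dimerizer alone in both genotypes.

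The RNA sensors IFIH1 (MDA5) and DDX58 (RIG-I) detect viral double-stranded RNA, and DDX60 assists them. IFIH1 was at 12.2, 12.7 and 11.4 CPM (WT control), 18.3, 18.8 and 17.2 CPM (WT dimerizer) and 9.85, 9.02 and 7.78 CPM (WT dimerizer plus TGF-β1). The 3 JNKKO groups had 13.4, 15.4 and 15.4 CPM (control), 12.04, 12.6 and 10.9 CPM (dimerizer) and 6.13, 4.80 and 5.57 CPM (dimerizer plus TGF-β1). IFIH1 was highest in WT dimerizer and lowest in JNKKO dimerizer with TGF-β1, with each of these groups clear of all others. DDX58 stayed within 6.53 to 9.79 CPM and DDX60 within 7.88 to 12.7 CPM over the 18 libraries. Neither passed the test for TGF-β1 in either genotype, and with dimerizer all 3 sensors were lower in JNKKO than in WT. The DDX58 call was lost without WT dimerizer replicate 2 (-0.22) or JNKKO dimerizer replicate 3 (-0.23).

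Of 15 genes listed that act before interferon, 13 were tested, and 7 rose and 2 fell with dimerizer in WT and 2 rose and 4 fell in JNKKO. With TGF-β1 4 rose and 4 fell in WT and 6 rose and 6 fell in JNKKO. TLR3, a receptor for double-stranded RNA in endosomes, was at 23.7, 22.2 and 21.3 CPM (WT control), 25.9, 24.7 and 25.9 CPM (WT dimerizer) and 18.98, 17.2 and 16.2 CPM (WT dimerizer plus TGF-β1). Under JNK knockout the values were 20.9, 22.5 and 18.8 CPM (control), 13.7, 14.47 and 11.9 CPM (dimerizer) and 4.87, 4.80 and 5.93 CPM (dimerizer plus TGF-β1), and the last is the lowest group. The difference of JNKKO from WT was -1.75 ± 0.10 with TGF-β1 (edgeR adjusted p = 4.62e-15) and -0.93 ± 0.08 with dimerizer (edgeR adjusted p = 1.47e-10). TMEM173 (STING), the adaptor of DNA sensing, was higher in JNKKO, with means of 25.5, 27.3 and 37.5 CPM against 12.6, 19.9 and 21.00 in WT. IRF5, a transcription factor on the same list, rose with dimerizer in WT by 2.18-fold and fell with TGF-β1 in JNKKO by 2.20-fold. IFI16, a nuclear DNA sensor, rose with dimerizer in WT by 0.55 and differed with TGF-β1 by -0.59 in WT and -0.59 in JNKKO, all on the log2 scale and all called.

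OAS enzymes sense double-stranded RNA and activate RNase L. OAS1, OAS3 and OAS2 lie side by side on chromosome 12 (hg38, 112906777 to 113011723, GENCODE 29), and OASL lies elsewhere on it. OAS1 was at 9.46, 9.68 and 9.47 CPM (WT control), 29.8, 30.4 and 30.4 CPM (WT dimerizer) and 7.10, 5.20 and 5.03 CPM (WT dimerizer plus TGF-β1). Knockout acini measured 32.5, 32.3 and 30.3 CPM (control), 26.99, 25.9 and 26.5 CPM (dimerizer) and 5.01, 5.13 and 5.72 CPM (dimerizer plus TGF-β1). WT control and both groups with TGF-β1 were low, at 9.68 CPM or less, and the other 3 groups were at 25.9 CPM or more. OAS1 rose with dimerizer in WT by 1.66 ± 0.08 (edgeR adjusted p = 5.32e-17) and was higher in JNKKO control than in WT control by 1.73 ± 0.08 (edgeR adjusted p = 4.11e-17). TGF-β1 lowered it 5.21-fold in WT (-2.38 ± 0.08) and 4.999-fold in JNKKO (-2.32 ± 0.09; edgeR adjusted p = 1.76e-20 and 1.8e-19). The interaction of genotype with TGF-β1 was 0.06 ± 0.12 and did not pass (edgeR adjusted p = 0.758).

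OAS3, whose promoter stretch is printed above, was at 37.1, 43.8 and 41.4 CPM (WT control), 80.8, 88.01 and 84.8 CPM (WT dimerizer) and 30.4, 28.3 and 27.8 CPM (WT dimerizer plus TGF-β1). JNKKO acini gave 89.9, 86.7 and 89.9 CPM (control), 63.97, 66.2 and 64.4 CPM (dimerizer) and 18.7, 17.7 and 19.96 CPM (dimerizer plus TGF-β1). As for OAS1, WT control and the groups with TGF-β1 were the low ones, and the dimerizer group of JNKKO lay below its control (-0.45 ± 0.05, edgeR adjusted p = 1.81e-08). The rise with dimerizer in WT was 1.05 ± 0.05 (edgeR adjusted p = 2.48e-16), and the difference between control groups was 1.12 ± 0.05 (edgeR adjusted p = 1.04e-16). The difference with TGF-β1 was -1.55 ± 0.05 in WT and -1.79 ± 0.06 in JNKKO (edgeR adjusted p = 1.8e-20 and 7.31e-21). OAS2 was lower, at 0.540, 0.452 and 0.873 CPM (WT control), 2.22, 2.28 and 2.42 CPM (WT dimerizer) and 0.695, 0.928 and 1.02 CPM (WT dimerizer plus TGF-β1). The knockout libraries held 3.70, 3.71 and 3.79 CPM (control), 7.09, 5.40 and 5.34 CPM (dimerizer) and 1.96, 2.15 and 2.41 CPM (dimerizer plus TGF-β1). OAS2 was higher in JNKKO than in WT under all 3 treatments, by 2.58 ± 0.20, 1.36 ± 0.16 and 1.30 ± 0.20 (edgeR adjusted p = 1.66e-11, 6.4e-08 and 3.75e-06). It also rose with dimerizer in JNKKO (0.66 ± 0.15, edgeR adjusted p = 0.000919), where OAS1 and OAS3 fell. The OAS1 difference there, -0.26, missed the threshold on TPM (-0.24).

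OASL, which lacks synthetase activity and aids RIG-I, was at 1.02, 0.871 and 0.705 CPM (WT control), 0.266, 0.525 and 0.449 CPM (WT dimerizer) and 1.12, 1.19 and 1.17 CPM (WT dimerizer plus TGF-β1). Corresponding JNKKO levels were 1.27, 1.13 and 1.57 CPM (control), 0.470, 0.479 and 0.354 CPM (dimerizer) and 2.80, 2.15 and 2.16 CPM (dimerizer plus TGF-β1). In each genotype the dimerizer group was the lowest and the TGF-β1 group the highest by mean. The difference with dimerizer in JNKKO was -1.60 ± 0.27 (edgeR adjusted p = 2.26e-05) and JNKKO exceeded WT with TGF-β1 by 1.03 ± 0.22 (edgeR adjusted p = 0.000235).

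**Figure D4:**
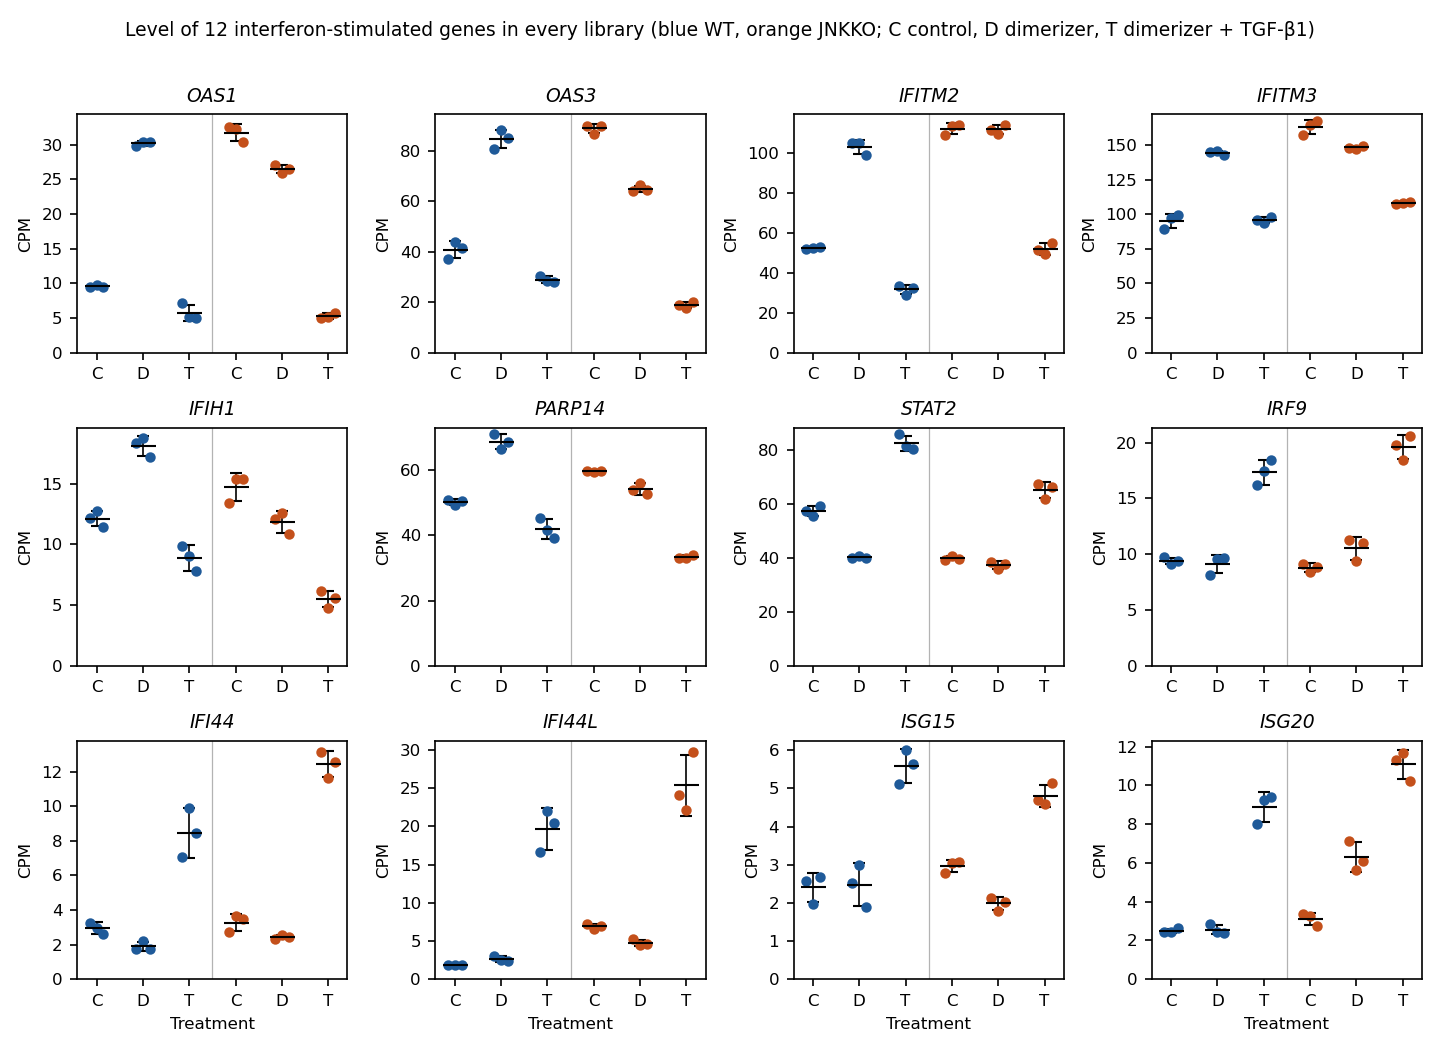
CPM of 12 members in every library, with WT in blue and JNKKO in orange, treatments on the horizontal axis (C control, D dimerizer, T dimerizer with TGF-β1) and bars for the mean ± SD of 3 libraries. OAS1, OAS3, IFITM2, IFITM3, IFIH1 and PARP14 have a lower WT control than WT dimerizer group and T groups below the D groups, while STAT2, IRF9, IFI44, IFI44L, ISG15 and ISG20 peak in T.

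The IFITM proteins sit in membranes and block virus entry. IFITM2 was at 51.8, 52.3 and 53.01 CPM (WT control), 105, 105 and 98.8 CPM (WT dimerizer) and 33.3, 29.04 and 32.5 CPM (WT dimerizer plus TGF-β1). For JNKKO the readings were 109, 114 and 114 CPM (control), 112, 109.5 and 114 CPM (dimerizer) and 51.6, 49.1 and 55.1 CPM (dimerizer plus TGF-β1). The JNKKO control and dimerizer groups overlapped (edgeR adjusted p = 0.953). In WT dimerizer IFITM2 was 1.96-fold that of control, at 0.97 ± 0.05 on the log2 scale (edgeR adjusted p = 1.06e-16). TGF-β1 lowered IFITM2 by 3.25-fold in WT and 2.15-fold in JNKKO (edgeR adjusted p = 2.23e-22 and 3.02e-18). With dimerizer JNKKO exceeded WT by only 0.12 ± 0.04 (edgeR adjusted p = 0.0295), and this turned to -0.02 on TPM and was lost without WT dimerizer replicate 3 (0.09) or JNKKO dimerizer replicate 1 (0.12) or 3 (0.11). With TGF-β1 it exceeded WT by 0.72 ± 0.05 (edgeR adjusted p = 8.11e-13).

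IFITM3 changed by smaller ratios. Its libraries held 89.02, 96.9 and 99.2 CPM (WT control), 145, 145 and 143 CPM (WT dimerizer) and 95.9, 93.8 and 97.9 CPM (WT dimerizer plus TGF-β1). The 3 JNKKO groups had 157, 165 and 167 CPM (control), 148, 147 and 149.5 CPM (dimerizer) and 107, 108 and 109 CPM (dimerizer plus TGF-β1). IFITM3 rose with dimerizer in WT by 0.60 ± 0.04 (edgeR adjusted p = 7.49e-14), and JNKKO control exceeded WT control by 0.78 ± 0.04 (edgeR adjusted p = 4.27e-16). Its difference with TGF-β1 was -0.59 ± 0.04 in WT and -0.45 ± 0.04 in JNKKO (edgeR adjusted p = 3.5e-14 and 1.64e-11). IFITM1 was low, at 1.02, 0.678 and 1.51 CPM (WT control), 2.72, 2.74 and 2.95 CPM (WT dimerizer) and 0.786, 0.398 and 0.401 CPM (WT dimerizer plus TGF-β1). Under JNK knockout the values were 2.78, 2.08 and 2.84 CPM (control), 1.24, 1.47 and 1.80 CPM (dimerizer) and 1.05, 0.704 and 1.33 CPM (dimerizer plus TGF-β1). The WT dimerizer and TGF-β1 groups did not overlap, while the JNKKO dimerizer and TGF-β1 groups overlapped. IFITM1 and IFITM2 share exon bases and near-identical sequence, so the division of reads among the 3 genes, set by RSEM, is uncertain.

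The IFIT proteins bind foreign RNA and the MX proteins trap viral particles. Apart from IFIT5, these textbook interferon targets stayed under 8 CPM. IFIT1 was at 4.16, 3.91 and 2.85 CPM (WT control) and 2.49, 2.10 and 2.25 CPM (WT dimerizer), and at 3.03, 2.93 and 2.68 CPM (JNKKO control) and 1.49, 1.41 and 1.42 CPM (JNKKO dimerizer). Its difference with dimerizer was -0.68 ± 0.16 in WT and -1.004 ± 0.18 in JNKKO (edgeR adjusted p = 0.000642 and 4.3e-05). IFIT2 was highest in WT control, at 7.43, 6.13 and 5.64 CPM, and lowest in JNKKO dimerizer with TGF-β1, at 1.37, 1.58 and 1.98 CPM. The difference of JNKKO from WT with TGF-β1 was -1.34 ± 0.18 (edgeR adjusted p = 2.4e-07). The lower IFIT2 levels in WT dimerizer (-0.33) and JNKKO control (-0.37) than in WT control were lost in 8 and 6 of 15 alternatives, among them DESeq2 (-0.34 and -0.37), log2(TPM + 1) (-0.18 and -0.24) and leaving out WT control replicate 1 (-0.21 and -0.25). IFIT3 ranged from 3.93 to 7.66 CPM and was highest in WT dimerizer with TGF-β1, and IFIT5 from 17.97 to 24.1 CPM, with 1 call in the 9 comparisons, a rise with dimerizer in WT that was lost in 6 of 15 alternatives. MX1 lay between 0.503 and 1.42 CPM and passed no test, and MX2 had no count in WT control, JNKKO control or JNKKO dimerizer.

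ISG15 is a ubiquitin-like protein that HERC5 attaches to others and USP18 removes. Its level was 2.57, 1.97 and 2.69 CPM (WT control), 2.52, 3.005 and 1.88 CPM (WT dimerizer) and 5.11, 6.000 and 5.65 CPM (WT dimerizer plus TGF-β1). Knockout acini measured 2.78, 3.04 and 3.06 CPM (control), 2.14, 1.79 and 2.03 CPM (dimerizer) and 4.69, 4.59 and 5.14 CPM (dimerizer plus TGF-β1). Both TGF-β1 groups stood above all other groups. USP18, which also blocks the receptor, went down with TGF-β1, from 4.13 ± 0.355 to 2.82 ± 0.491 CPM in WT and from 3.34 ± 0.711 to 2.27 ± 0.281 in JNKKO. The JNKKO difference was lost on TPM (-0.19) and without JNKKO dimerizer replicate 1 (-0.37). HERC6, a relative of HERC5, was at 4.22, 4.74 and 5.14 CPM (WT control), 6.94, 6.94 and 7.30 CPM (WT dimerizer) and 4.78, 3.61 and 4.51 CPM (WT dimerizer plus TGF-β1). JNKKO acini gave 6.51, 6.46 and 6.59 CPM (control), 3.67, 4.22 and 3.60 CPM (dimerizer) and 2.10, 2.18 and 2.30 CPM (dimerizer plus TGF-β1). HERC6 differed with dimerizer in JNKKO by -0.76 ± 0.12 (edgeR adjusted p = 4.43e-06), and JNKKO from WT with dimerizer by -0.88 ± 0.11 (edgeR adjusted p = 3.26e-07). HERC5 stayed between 2.36 and 4.55 CPM and was highest in WT dimerizer.

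IFI44 and IFI44L, neighbouring genes on chromosome 1 (hg38, 78619922 to 78664078, GENCODE 29), had the largest rises with TGF-β1 among members above 1 CPM in every library. IFI44L was at 1.90, 1.90 and 1.85 CPM (WT control), 3.09, 2.48 and 2.36 CPM (WT dimerizer) and 16.6, 22.04 and 20.4 CPM (WT dimerizer plus TGF-β1). The knockout libraries held 7.22, 6.603 and 7.01 CPM (control), 5.25, 4.50 and 4.54 CPM (dimerizer) and 24.1, 22.2 and 29.8 CPM (dimerizer plus TGF-β1). It rose 7.48-fold in WT and 5.35-fold in JNKKO (edgeR adjusted p = 5.23e-17 and 6.64e-16). IFI44L was also higher in JNKKO than in WT with dimerizer, by 0.85 ± 0.15 (edgeR adjusted p = 5.93e-05), where IFI44 at 0.36 ± 0.17 did not pass (edgeR adjusted p = 0.0831). IFI44 itself went from 1.76, 2.19 and 1.71 CPM with dimerizer to 7.04, 9.88 and 8.42 with TGF-β1 in WT. In JNKKO it went from 2.31, 2.52 and 2.45 to 13.1, 11.6 and 12.6 CPM. These are rises of 2.16 ± 0.14 and 2.35 ± 0.13 (edgeR adjusted p = 4.48e-14 and 3.48e-15). WT control libraries held 3.27, 2.97 and 2.62 CPM of IFI44, so dimerizer alone made a difference of -0.64 ± 0.16 (edgeR adjusted p = 0.00100).

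IFI6, a mitochondrial and endoplasmic reticulum protein that protects from cell death, was at 2.36, 2.80 and 3.40 CPM in WT dimerizer and 6.65, 7.69 and 6.85 with TGF-β1. In JNKKO it went from 2.26, 1.69 and 2.16 to 7.22, 7.21 and 7.84 CPM, a rise of 1.87 ± 0.16 (edgeR adjusted p = 5.2e-11). The 2 control groups, at 3.16 ± 0.825 and 3.89 ± 0.684 CPM, overlapped. IFI35 ranged from 3.48 to 6.35 CPM, and its lower level in JNKKO control (-0.30, edgeR adjusted p = 0.0433) was lost in 8 of 15 alternatives, among them DESeq2 (-0.30) and leaving out WT control replicate 2 (-0.23). IFI27 stayed at or below 1.03 CPM in every library.

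Among the remaining effectors, ISG20 had the largest rise with dimerizer in JNKKO. It was at 2.41, 2.42 and 2.62 CPM (WT control), 2.82, 2.45 and 2.39 CPM (WT dimerizer) and 8.01, 9.25 and 9.38 CPM (WT dimerizer plus TGF-β1). Corresponding JNKKO levels were 3.35, 3.25 and 2.76 CPM (control), 7.13, 5.62 and 6.11 CPM (dimerizer) and 11.3, 11.7 and 10.2 CPM (dimerizer plus TGF-β1). The JNKKO dimerizer group thus lay between control and TGF-β1 without overlap, while WT control and dimerizer overlapped. The rise with dimerizer in JNKKO was 1.0 ± 0.12 (edgeR adjusted p = 1.21e-07), and with dimerizer JNKKO exceeded WT by 1.30 ± 0.12 (edgeR adjusted p = 1.15e-09). TGF-β1 raised ISG20 3.48-fold in WT (1.80 ± 0.12, edgeR adjusted p = 4.87e-14).

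BST2 (tetherin), which holds budding viruses at the surface, was at 100.3, 101 and 108 CPM (WT control) and 72.9, 82.7 and 78.1 CPM (WT dimerizer), and at 87.5, 82.03 and 91.1 CPM (JNKKO control) and 86.4, 75.97 and 87.2 CPM (JNKKO dimerizer). WT control was the highest of these groups: the difference of WT dimerizer from it was -0.40 ± 0.05 (edgeR adjusted p = 9.29e-08) and that of JNKKO control was -0.25 ± 0.05 (edgeR adjusted p = 0.000178). TRIM22, a ubiquitin ligase, was lower in JNKKO under all 3 treatments. WT libraries held 76.8, 70.1 and 69.6 CPM (control), 84.03, 77.5 and 82.7 CPM (dimerizer) and 71.2, 64.8 and 62.3 CPM (dimerizer plus TGF-β1). For JNKKO the readings were 53.9, 62.3 and 56.7 CPM (control), 53.2, 53.6 and 54.8 CPM (dimerizer) and 43.6, 39.9 and 42.1 CPM (dimerizer plus TGF-β1), with no overlap at any treatment. The differences were -0.32 ± 0.05, -0.59 ± 0.05 and -0.66 ± 0.06 (edgeR adjusted p = 1.38e-05, 7.74e-10 and 8.13e-11). PARP14, which adds ADP-ribose to proteins, was at 50.9, 49.3 and 50.4 CPM (WT control), 71.05, 66.5 and 68.5 CPM (WT dimerizer) and 45.2, 41.8 and 39.03 CPM (WT dimerizer plus TGF-β1). The 3 JNKKO groups had 59.6, 59.4 and 59.8 CPM (control), 53.9, 56.1 and 52.6 CPM (dimerizer) and 33.03, 33.2 and 34.1 CPM (dimerizer plus TGF-β1). It rose with dimerizer in WT by 0.45 ± 0.05 (edgeR adjusted p = 1.32e-09) and differed with TGF-β1 by -0.71 ± 0.05 in WT and -0.70 ± 0.05 in JNKKO (edgeR adjusted p = 4.74e-14 and 2.88e-13).

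PARP9, its partner, stayed within 11.98 to 16.2 CPM. SAMD9 and SAMD9L lie side by side on chromosome 7 and restrict poxviruses. SAMD9 was at 24.7 ± 1.03 CPM in WT dimerizer and 37.3 ± 2.38 with TGF-β1, and at 19.99 ± 0.917 and 28.1 ± 1.64 CPM in JNKKO, higher with TGF-β1 in both. SAMD9L went from 4.98, 4.93 and 4.61 to 4.29, 4.21 and 4.23 CPM with TGF-β1 in WT and from 3.76, 3.77 and 3.51 to 5.88, 6.34 and 6.08 in JNKKO. The rise in JNKKO passed the test and the WT difference did not, and the interaction given above tested the genotypes against each other. RSAD2 (viperin), a radical enzyme made after strong interferon signals, had 6, 2 and 0 counts in WT dimerizer with TGF-β1 and 35, 46 and 49 in the same JNKKO group. Its level was 1.51 ± 0.270 CPM in that JNKKO group, against a median of 0.156 CPM over all 18 libraries. It may have passed the filter on low counts only through that group, so no ratio or p-value is given for RSAD2. CMPK2, a nucleotide kinase, lies next to RSAD2 on the opposite strand with shared exon bases, and had 1 count in WT dimerizer and 40 in JNKKO dimerizer with TGF-β1. No ratio is given for it. RSAD2 and CMPK2 are among the 37 members tested, so the counts of members called include them wherever they passed the test.

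Genes outside the member list were counted in the same fit. Of 16 negative regulators, 6 rose and 7 fell with dimerizer in WT and 2 rose and 9 fell in JNKKO. SOCS1, the inhibitor of JAK kinases, was at 13.9, 15.4 and 19.9 CPM (WT control) and 3.82, 4.52 and 5.14 CPM (WT dimerizer), and at 4.51, 5.72 and 5.79 in JNKKO control. It was 3.63-fold lower in WT dimerizer and 3.07-fold lower in JNKKO control than in WT control (edgeR adjusted p = 4.4e-11 and 7.85e-10). All 3 WT control libraries lay above the others given, and both comparisons share them. PTPN2, a phosphatase of STAT proteins, differed with TGF-β1 by -0.76 ± 0.05 in WT and -0.70 ± 0.05 in JNKKO (edgeR adjusted p = 1.47e-13 and 1.49e-12). With TGF-β1 5 rose and 5 fell in WT and 4 rose and 3 fell in JNKKO. In JNKKO against WT, 6 were higher and 5 lower in control, 2 were higher and 5 lower with dimerizer and 6 were higher and 8 lower with TGF-β1. All genes had 25.8% and 23.5%, 21.6% and 18.5%, and 26.5% and 26.4% there.

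A list of 30 further interferon-stimulated genes, 28 of them tested, was set beside the members. With dimerizer 16 rose and 2 fell in WT and 3 rose and 8 fell in JNKKO (median log2 0.16 and -0.08; all genes 30.3% and 25.6% with median 0.03, and 22.5% and 17.9% with 0.00638), and 15 were higher and 4 lower in JNKKO control against WT control. With dimerizer 3 were higher and 15 lower in JNKKO, and with TGF-β1 5 were higher and 17 lower. Among all genes tested, 25.8% were higher and 23.5% lower in JNKKO for the control groups. Their shares were 21.6% and 18.5% for the dimerizer groups, then 26.5% and 26.4% where TGF-β1 was present. Adding TGF-β1, 11 of the 28 rose and 13 fell in WT and 9 rose and 11 fell in JNKKO. UBE2L6, the enzyme that loads ISG15, was at 13.2, 11.6 and 14.54 CPM (WT control), 24.6, 23.95 and 21.3 CPM (WT dimerizer) and 27.1, 27.1 and 29.5 CPM (JNKKO control), so WT control was the lowest of these groups. IFI30, a lysosomal reductase, rose with dimerizer in WT by 0.59 on the log2 scale and was 2.12-fold lower with TGF-β1 than without in WT. TRIM14 differed with TGF-β1 by -0.83 ± 0.05 in WT and -0.79 ± 0.05 in JNKKO, while SP110 rose in JNKKO by 1.33 ± 0.08 (edgeR adjusted p = 3.08e-15, 1.35e-14 and 2.39e-14). TNFSF10, the death ligand TRAIL, was at 9.46 CPM in WT and 3.31 in JNKKO with TGF-β1.

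Genes led mainly by interferon-gamma, 22 listed and 16 tested, were the last list. With dimerizer 7 rose and 4 fell in WT and 1 rose and 11 fell in JNKKO (median log2 0.14 and -0.66; all genes 30.3% and 25.6%, and 22.5% and 17.9%). With TGF-β1 3 rose and 7 fell in WT and 3 rose and 8 fell in JNKKO. TAP1, the peptide transporter of antigen presentation, was at 70.1, 68.6 and 69.2 CPM (WT control), 105, 104 and 111 CPM (WT dimerizer) and 56.5, 48.2 and 48.1 CPM (WT dimerizer plus TGF-β1). Under JNK knockout the values were 85.4, 94.4 and 92.02 CPM (control), 59.3, 57.3 and 61.01 CPM (dimerizer) and 26.4, 27.2 and 30.5 CPM (dimerizer plus TGF-β1). TAP1 rose with dimerizer in WT (0.62 ± 0.05) and fell in JNKKO (-0.61 ± 0.05; edgeR adjusted p = 1.11e-10 and 7.19e-10), and it fell with TGF-β1 in both. GBP2, a guanylate-binding protein, went in WT from 57.1, 54.3 and 52.9 CPM in control to 20.2, 19.6 and 21.2 CPM under dimerizer and 43.4, 45.05 and 43.9 CPM once TGF-β1 was added. In JNKKO against WT, 6 were higher and 1 lower in control, 2 were higher and 9 lower with dimerizer and 1 was higher and 10 lower with TGF-β1. All genes had 25.8% and 23.5%, 21.6% and 18.5%, and 26.5% and 26.4% in these comparisons.

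The other list genes with the smallest adjusted p in 1 or more comparisons follow, with log2 differences from the same fit. JAK1, the kinase shared by the interferon receptors, differed with dimerizer by -0.44 ± 0.04 in WT and -0.28 ± 0.04 in JNKKO. With TGF-β1 it rose by 0.43 ± 0.04 in WT, and JNKKO differed from WT by -0.50 ± 0.04. The interferon-gamma receptor chain IFNGR1 differed with TGF-β1 by -0.63 ± 0.05 in WT and -0.61 ± 0.05 in JNKKO, and between genotypes by -0.59 ± 0.05 with dimerizer. STAT3, a related STAT factor, was lower in JNKKO than in WT with TGF-β1 (-0.77 ± 0.03) and differed with TGF-β1 in JNKKO by -0.43 ± 0.03. Each of these differences passed the test. SAMHD1, which breaks down nucleotides, differed with dimerizer by -0.91 ± 0.12 in JNKKO and between genotypes by -0.75 ± 0.12. RNASEH2C, a subunit of RNase H2, differed with dimerizer by -0.63 ± 0.06 in WT. IRF2BP2, a corepressor, was higher in JNKKO under all 3 treatments, by 0.28 ± 0.04, 0.38 ± 0.04 and 0.46 ± 0.04. The phosphatase PTPN6 was lower in JNKKO with TGF-β1 (-0.39 ± 0.05), and the STAT inhibitor PIAS1 was lower with TGF-β1 in WT (-0.45 ± 0.05). MYD88, the adaptor of Toll-like receptors, rose with TGF-β1 in WT by 0.91 ± 0.06, and the kinase IKBKE fell with dimerizer in JNKKO (-0.47 ± 0.08). Among further targets, the antiviral genes PARP10 (-0.51 ± 0.06) and ZC3HAV1 (-0.33 ± 0.04) fell with dimerizer in JNKKO. HELZ2 was higher in JNKKO with dimerizer (0.36 ± 0.05), LGALS3BP was higher in control (0.46 ± 0.04), and ZNFX1 was lower with TGF-β1 (-0.48 ± 0.04). NLRC5, the activator of class I antigen presentation genes, was lower in JNKKO with dimerizer, from 15.7, 15.9 and 16.96 CPM in WT to 9.05, 7.82 and 7.56 CPM. The immunoproteasome gene PSMB8 was higher in JNKKO control (0.59 ± 0.07). ICAM1, an adhesion molecule, rose with TGF-β1 in JNKKO by 0.70 ± 0.05 and exceeded WT there by 0.83 ± 0.05.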

How the data were processed

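Poly(A) RNA of acini was sequenced in 18 libraries as 150-base read pairs, per the labels' protocols. The authors deposited RSEM expected counts and TPM values per gene. The tools cutadapt and RSEM and the build hg38 are named in the submitters' processing notes. Tool versions, gene annotation and strand handling are unknown (not given in the sources used here). For the count test each expected count was rounded, and a median of 9.35% of all values per library had decimals.

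Samples were grouped by title, into 6 groups of 3. Counts were fitted over all 18 libraries with edgeR 4.0.16 (R 4.3.3; TMM scaling, filterByExpr, quasi-likelihood test) and 9 comparisons were drawn, with Benjamini-Hochberg adjustment over the 16911 genes tested. CPM values are counts per 1000000 after TMM scaling. Fold changes are the model's. Alternatives were RLE size factors, DESeq2 1.42.0, other filters, only the groups compared, limma 3.58.1 on log2(TPM + 1) and log2(TPM + 0.1) of the deposited TPM, no mitochondrially encoded genes, a replicate block and leaving out each library. The scripts' statistics were tested on simulated data for JNKKO against WT in control only, with the same dispersion for every gene. Of 50 genes changed 1.5-fold there, 96% were recovered, with 11 false calls among 16446 genes run. Interactions and changed genes averaging under 1 CPM were not simulated, so that test does not cover them.

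Members named with a test were, in each comparison, up to 5 called in each direction with the smallest adjusted p, a mean of at least 1 CPM in the higher group and no overlap between libraries. For interactions they were up to 3 in each direction, for each of 6 pathway lists up to 2 genes, and IFNAR1, IFNAR2 and IFNB1 throughout. RSAD2 met this rule with TGF-β1 and is given by counts and level, without a p-value. Other members are given by level, and IFI35, IFIT5, USP18 and DDX58 calls were singled out after their values were seen. Some further calls outside this rule are stated too, such as those of ISG15, IFIH1 and OAS2 with TGF-β1. The members, lists and rules were chosen with earlier results of these data known. A gene of the pathway lists and a gene of the marker lists are not reported here and were left out of their lists. Promoters were matched by symbol for 31 of 39 members.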

Additional observations from a re-analysis of the deposited data

Results flagged for a closer look

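The results below differed between the genotypes by the interaction term of the edgeR fit. For dimerizer, the effect in JNKKO minus that in WT was 0.42 on the log2 scale for STAT2. It was 0.96 for ISG20 and 0.34 for BST2. OAS3 had -1.51, OAS1 had -1.93 and IFITM2 had -0.98. For TGF-β1 added to dimerizer, the same difference was 0.60 for IFITM2, 0.92 for SAMD9L and 1.83 for IFITM1. It was -0.97 for ISG20, -0.23 for STAT2 and -0.76 for IFIT2. Groups of 3 libraries are too small for a test of single outlying libraries.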

How the results depend on the processing

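Of 170 results on single genes, 155 kept their side of the threshold in every alternative, and their direction where they passed it. Most of the 170 were picked for a small adjusted p. Of all member calls, 19 of 26 with dimerizer in WT and 15 of 21 in JNKKO were kept in every alternative. With TGF-β1 24 of 27 were kept in WT and 22 of 26 in JNKKO. JNKKO against WT kept 15 of 22 in control, 17 of 24 with dimerizer and 20 of 24 with TGF-β1. The interactions kept 20 of 23 with dimerizer and 5 of 12 with TGF-β1. Over the values of the 170 results under the alternatives, 64 were weaker, 9 stronger and 2 reversed, against 2543 that were the same. The cause was not tested. The reversed ones were both of IFITM2 in JNKKO against WT with dimerizer, at -0.023 on log2(TPM + 1) and -0.0231 on log2(TPM + 0.1). Limma on either TPM scale called 3 members higher in JNKKO with dimerizer, against 5, and 1 with a lower effect of TGF-β1 in JNKKO, against 5. Leaving out 1 library gave 16 to 18 members higher and 5 to 6 lower with dimerizer in WT, and 2 to 3 and 15 to 18 in JNKKO. All genes, 17201 to 17261 tested per fit, gave 4727 to 4849 and 3955 to 4090 in WT. In JNKKO all genes gave 3388 to 3594 and 2574 to 2713. With TGF-β1 the ranges were 13 and 12 to 15 in WT, and 13 to 14 and 11 to 13 in JNKKO. Those of all genes were 5298 to 5459 and 5068 to 5289 in WT, and 4849 to 4952 and 4746 to 4885 in JNKKO. For JNKKO against WT the members' ranges were 13 to 15 and 4 to 6 in control, 3 to 7 and 16 to 20 with dimerizer, and 9 to 11 and 13 to 14 with TGF-β1. All genes had 3925 to 4074 and 3529 to 3717, 3221 to 3386 and 2608 to 2898, and 4068 to 4511 and 3853 to 4098. For the interactions the members' ranges were 3 to 4 and 18 to 21 with dimerizer, and 4 to 7 and 3 to 6 with TGF-β1. All genes had 3325 to 3556 and 3295 to 3590 with dimerizer, and 2084 to 2521 and 2636 to 3047 with TGF-β1. The count of 3 higher with dimerizer came without JNKKO dimerizer replicate 1. The TGF-β1 interaction had 4 higher without JNKKO dimerizer replicate 2 or JNKKO dimerizer with TGF-β1 replicate 3. It had 3 lower without WT dimerizer with TGF-β1 replicate 1 or JNKKO dimerizer with TGF-β1 replicate 1 or 2.

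With the replicate block the counts were 19 and 7 with dimerizer in WT, 3 and 18 in JNKKO, 13 and 14 with TGF-β1 in WT and 14 and 13 in JNKKO. JNKKO against WT gave 14 and 6, 5 and 19, and 12 and 13 in the order of treatments. The interactions gave 3 and 20, and 8 and 5. Of all 16911 genes tested with the block, 5153 rose and 4315 fell with dimerizer in WT and 3812 and 3012 in JNKKO. With TGF-β1 these were 5662 and 5391 in WT and 5144 and 5116 in JNKKO. For JNKKO against WT they were 4360 and 3974, 3648 and 3105, and 4478 and 4472. For the interactions they were 3591 and 3592, and 2409 and 3203. Same-numbered libraries did not deviate together over all genes tested (correlations from -0.06 to 0.05). With 3 libraries per group and counting noise in the deviations, this cannot exclude a pairing or a shared batch. The main fit treated the libraries as unpaired. Depth limits the members under 1 CPM, such as CMPK2, RSAD2 and MX2.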
